A study of Mus musculus with 6 samples.

Results

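A set of 10 long non-coding RNAs was followed through 6 libraries of cultured mouse hepatic stellate cells, out of 13341 genes in the deposited table. The 10 were chosen by name, and all 10 had a row and passed the filter on low values. They are the small nucleolar RNA (snoRNA) host RNAs Snhg1, Snhg3, Snhg5, Snhg6, Snhg8, Snhg12 and Gas5, the nuclear RNAs Neat1 and Malat1, and the predicted gene Gm26917. Snhg8 was picked for its split between libraries, so its values are given as a description with no test.

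Cells labelled Nbr1 knock-out (3 libraries) were set against cells labelled wild type (3 libraries). Nbr1 encodes a receptor that brings cargo to autophagosomes, and stellate cells are liver pericytes that store vitamin A. Culture lasted 4 days for both groups, with 10% serum and no other agent named, and the labels give neither the strain, age or sex of the mice nor how Nbr1 was removed. By its title, the study concerns opposite roles of p62 and NBR1 in STING signalling of stellate cells during hepatocellular carcinoma.

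A snoRNA host gene carries snoRNAs in its introns. Splicing frees them, and box C/D and box H/ACA snoRNAs then guide chemical modification of ribosomal RNA, while the spliced host RNA is often degraded by nonsense-mediated decay. Many host genes, Gas5 among them, start transcription in a pyrimidine tract (a TOP sequence), as ribosomal protein genes do. Neat1 is the scaffold of nuclear paraspeckles, and Malat1 is an abundant RNA of nuclear speckles. In the GENCODE M21 annotation (GRCm38), 10 snoRNA genes lie inside Gas5 on its strand, 8 inside Snhg1, 5 inside Snhg12, 2 each inside Snhg3 and Snhg5, and 1 each inside Snhg6 and Snhg8. The same annotation places 0 inside Neat1, Malat1 and Gm26917.

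The starts of 6 host genes are shown because 3 of these RNAs (Snhg8, Snhg1 and Snhg3) were split between libraries and 3 (Snhg5, Snhg12 and Gas5) were not. Each line runs from 50 bases before to 50 bases after the annotated start, 5' to 3' on the gene's strand, from RefSeq on GRCm38.p6, an earlier build than the one named for the deposited data. Capitals mark the longest run of at least 5 pyrimidines (C or T) that touches the 10 bases on either side of the start.
Snhg8: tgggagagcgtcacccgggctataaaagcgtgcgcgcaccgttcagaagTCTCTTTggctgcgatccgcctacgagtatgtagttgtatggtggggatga
Snhg1: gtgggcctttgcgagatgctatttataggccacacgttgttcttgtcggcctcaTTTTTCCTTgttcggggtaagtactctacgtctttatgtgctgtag
Snhg3: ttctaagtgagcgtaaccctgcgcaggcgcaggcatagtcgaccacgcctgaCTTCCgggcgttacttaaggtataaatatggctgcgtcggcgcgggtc
Snhg5: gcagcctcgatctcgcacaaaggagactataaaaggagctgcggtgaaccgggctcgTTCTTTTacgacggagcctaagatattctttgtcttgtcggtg
Snhg12: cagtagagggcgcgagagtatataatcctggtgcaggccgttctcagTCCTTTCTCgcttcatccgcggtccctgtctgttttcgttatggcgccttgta
Gas5: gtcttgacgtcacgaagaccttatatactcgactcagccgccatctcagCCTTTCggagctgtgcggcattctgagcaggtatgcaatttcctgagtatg

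The windows are chr3:123508287-123508386 (minus strand) for Snhg8, chr19:8723437-8723536 (plus) for Snhg1, chr4:132353637-132353736 (minus) for Snhg3, chr9:88522848-88522947 (minus) for Snhg5, chr4:132308628-132308727 (plus) for Snhg12 and chr1:161035116-161035215 (plus) for Gas5. All 6 hold such a run, of 7 bases in Snhg8 and Snhg5, 9 in Snhg1 and Snhg12, 6 in Gas5 and 5 in Snhg3. The run begins at position -1 in Snhg8 and Gas5 and at -3 in Snhg12, where 1 is the annotated first base and -1 the base before it. In Snhg3, Snhg1 and Snhg5 it begins at 3, 5 and 8. The run was present in both the split and the even RNAs, and 44.9% of 32851 RefSeq promoter windows hold one. A second annotated start of Gas5, not printed, and the start of Malat1 hold none. The letters TATAAA, searched on both strands in the 50 bases before the start, occur on the gene's strand in Snhg8 and Snhg5 (2.63% of all windows) and on the other strand in Snhg1 (1.1%). The motifs did not overlap. The table gave windows for 7 of the 10 genes, and those of Snhg6, Neat1 and Gm26917 are not shown.

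The libraries held 1648800 to 2276529 recovered reads in the knock-out label and 1508518 to 2383879 in the wild-type label. Nbr1 itself had 203.7, 188.2 and 175.6 normalized counts in knock-out libraries 1 to 3 and 204.1, 278 and 288.7 in wild-type libraries 1 to 3 (limma adjusted p = 0.22). Reads of the 3' end cannot show a deletion elsewhere in the gene, so these values are no check on the labels. The p62 gene Sqstm1 had 644.6 to 859.1 in the knock-out label and 10.9 to 24 in the wild-type label, 48.7-fold apart (limma adjusted p = 0.000337). The cells labelled wild type thus held little Sqstm1 RNA, and the reason was not tested. Each direction below rests on the labels and sets the knock-out label against cells with that low level. Clustered on their deviations from the group means over the 10530 tested genes other than the 10 RNAs, the libraries fell into knock-out 1, knock-out 3 and wild-type 1 on the one side and knock-out 2, wild-type 2 and wild-type 3 on the other. The chi-square of reads per degree of freedom was 1.54 between knock-out libraries 1 and 3, 1.5 between wild-type libraries 2 and 3, and 7.97 to 25.62 between all other pairs. None were counted as 1 sample, and separate cultures cannot be told from repeat preparations by this measure. Summed stellate cell markers (10 of 13 listed had a row, with Des, Lrat and Reln not analysed here) came to 18367 to 22579 normalized counts in the knock-out label and 8373 to 11297 in the wild-type label. The sums were 8.6 to 28.5 against 24.4 to 32.0 for hepatocytes (3 of 8 listed), 16.6 to 27.5 against 12.6 to 14.7 for macrophages (3 of 8) and 6.0 to 8.3 against 3.4 to 5.4 for endothelium (1 of 7). They were 1140.6 to 1344.2 against 1544.9 to 1894.0 for mesothelium (5 of 5), and 512.4 to 537.5 against 73.1 to 78.1 for cholangiocytes (4 of 6). The higher cholangiocyte sum was that of Sox9 alone (467.1 to 496.0 against 10.7 to 21.8), since Krt19 (31.8 to 37.1 against 47.2 to 50.7) and Krt8 (0 to 0.9 against 3.6 to 5.3) were lower without overlap and Krt7 overlapped. Every row of the deposited table held at least 9 reads over the 6 libraries, so no marker with a row could be at 0 in all 6. No lymphocyte or neutrophil marker was analysed. The part of these cells in the results was not tested, and in bulk RNA fewer cells of a type and less RNA per cell cannot be told apart.

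Normalized counts here are reads divided by 1 factor per library, set by the authors, and a 3' kit counts transcript ends, so a level does not grow with transcript length. By the mean of 6 libraries the order was Gm26917 (32686.3), Malat1 (3504.7), Gas5 (1612.9), Snhg3 (431.2), Snhg8 (364.4), Neat1 (330.4), Snhg1 (312.7), Snhg5 (150.7), Snhg6 (146.4) and Snhg12 (102.8). The first 3 were each apart from the next in every library. From Snhg3 down, each range overlapped that of the next RNA, so the order of adjacent RNAs among these 7 lies inside the spread between libraries. RNAs further apart could differ in all libraries. Snhg3 (189.4 or more) and Neat1 (229.3 or more) were above Snhg5 (at most 176.1) and Snhg12 (at most 124.3). Together the 10 RNAs took 1.69% to 2.12% of all reads in the knock-out libraries and 2.08% to 2.17% in the wild-type libraries, most of it Gm26917.

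**Figure D1:**
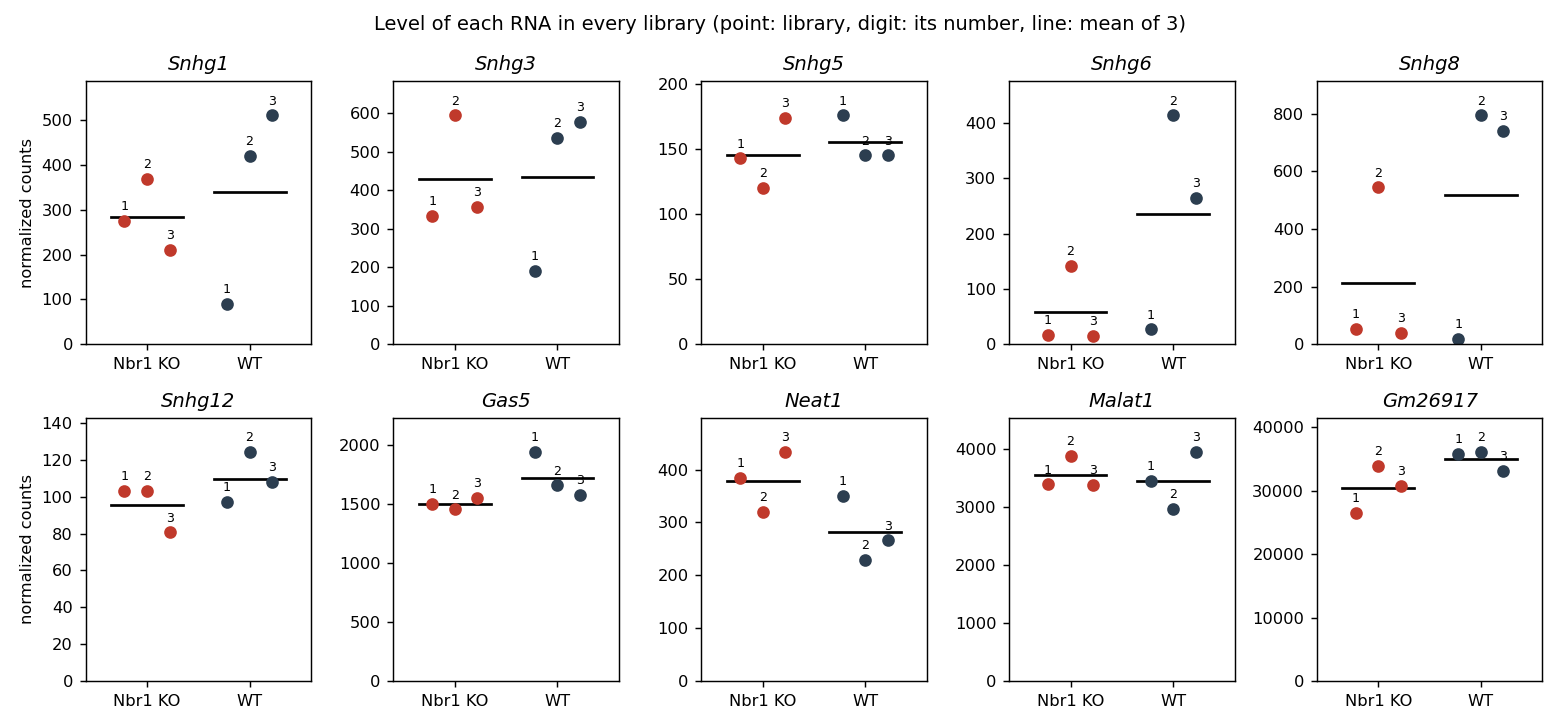
Normalized counts of the 10 RNAs in each library, with Nbr1 knock-out left of wild type; each point is 1 library, the digit is its number and the line is the mean of 3. Snhg8 and Snhg6 are low in knock-out libraries 1 and 3 and wild-type library 1, while Gas5, Malat1 and Gm26917 vary by less than 1.4-fold over all 6 libraries.

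None of the 9 RNAs other than Snhg8 passed the test between the labels (limma on log2(value + 1), Benjamini-Hochberg adjusted p under 0.05 over 10540 genes). Over all tested genes 6.92% passed, made up of 4.67% that rose and 2.25% that fell. The same count of 0 was found with edgeR and DESeq2 on the recovered reads, and 0 of the 9 had an unadjusted limma p under 0.05, against 22.6% of all tested genes. The log2 change was negative for 5 and positive for 4 of them, with a median of -0.10 against -0.012 over all tested genes. With quantile normalization the median was 0.042 and 4 were negative. The number of replicates limits what this shows, and the intervals below give the changes each RNA allows.

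Of the 7 host RNAs 4, Snhg8, Snhg6, Snhg1 and Snhg3, were lower in knock-out library 1, knock-out library 3 and wild-type library 1 than in each of the other 3 libraries. Neat1 was higher in the same 3 libraries, and the other 5 RNAs overlapped. Over all tested genes 21.5% were lower without overlap in those 3 libraries and 18.5% higher, so the split runs through the data. Leaving out Snhg8, which was picked for this split, 3 of 9 were lower and 1 of 9 higher. Between the labels, 30.1% of tested genes did not overlap. Of the 9 RNAs other than Snhg8, Gas5 alone did not overlap.

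Snhg8, which carries the box H/ACA snoRNA Snora24, varied most. It had 51.6, 544 and 39.2 normalized counts in knock-out libraries 1 to 3 (57, 633 and 33 reads) and 17.3, 793.6 and 740.9 in wild-type libraries 1 to 3 (13, 945 and 816 reads). The 3 low libraries come from both labels, and the highest value was 45.76 times the lowest. For comparison, the median ratio of highest to lowest over tested genes was 2.04. No part of the last 300 bases of any annotated Snhg8 transcript (0 of 451 words of 31 bases) occurs in a transcript of another GENCODE gene, so its reads have no annotated copy to be shared with. Of the other 9 RNAs, Snhg6 was nearest to Snhg8, at a root mean square difference of 0.82 in centred log2 values over the 6 libraries, followed by Snhg1 at 1.52 and Snhg3 at 1.69.

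The 8 genes whose pattern over the 6 libraries was most like Snhg8, among 2789 eligible, were Ost4, Spacdr, Pmpcb, Srebf1, Gar1, Gnb2, Ccng2 and Nek2, at root mean square differences of 0.313 to 0.54. Eligible genes had a mean of at least 50 and varied by at least 1 on the log2 scale, and predicted models were left out. Ost4, which encodes a small subunit of the oligosaccharyltransferase, had 26.3, 202 and 9.5 normalized counts in knock-out libraries 1 to 3 and 6.7, 320.8 and 233.3 in wild-type libraries 1 to 3. Gar1 encodes a core protein of box H/ACA snoRNPs, the class of particle that Snora24 belongs to. It had 24.4, 97.1 and 11.9 in the knock-out libraries and 4, 187.3 and 176.1 in the wild-type libraries. The likeness to Snhg8 is what chose these genes, so their low values in the same 3 libraries are a description. Pmpcb, a subunit of the mitochondrial processing peptidase, had 25.3, 378.2 and 13.1 in the knock-out libraries and 14.7, 355.2 and 390.4 in the wild-type libraries. Of the 7 matched to a chromosome, 4 (Ost4, Pmpcb, Gnb2 and Ccng2) lie on chromosome 5, which holds 6.27% of tested genes. This count was not tested. Of the wider set of 42 strongly split genes described at the end, chromosome 5 held 4, as did chromosomes 1, 3, 4 and 11. Ost4, Pmpcb and Gnb2 are among those 4 on chromosome 5, so the sets share genes. Gar1 lies on chromosome 3, as Snhg8 does, Srebf1 on 11 and Nek2 on 1.

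**Figure D2:**
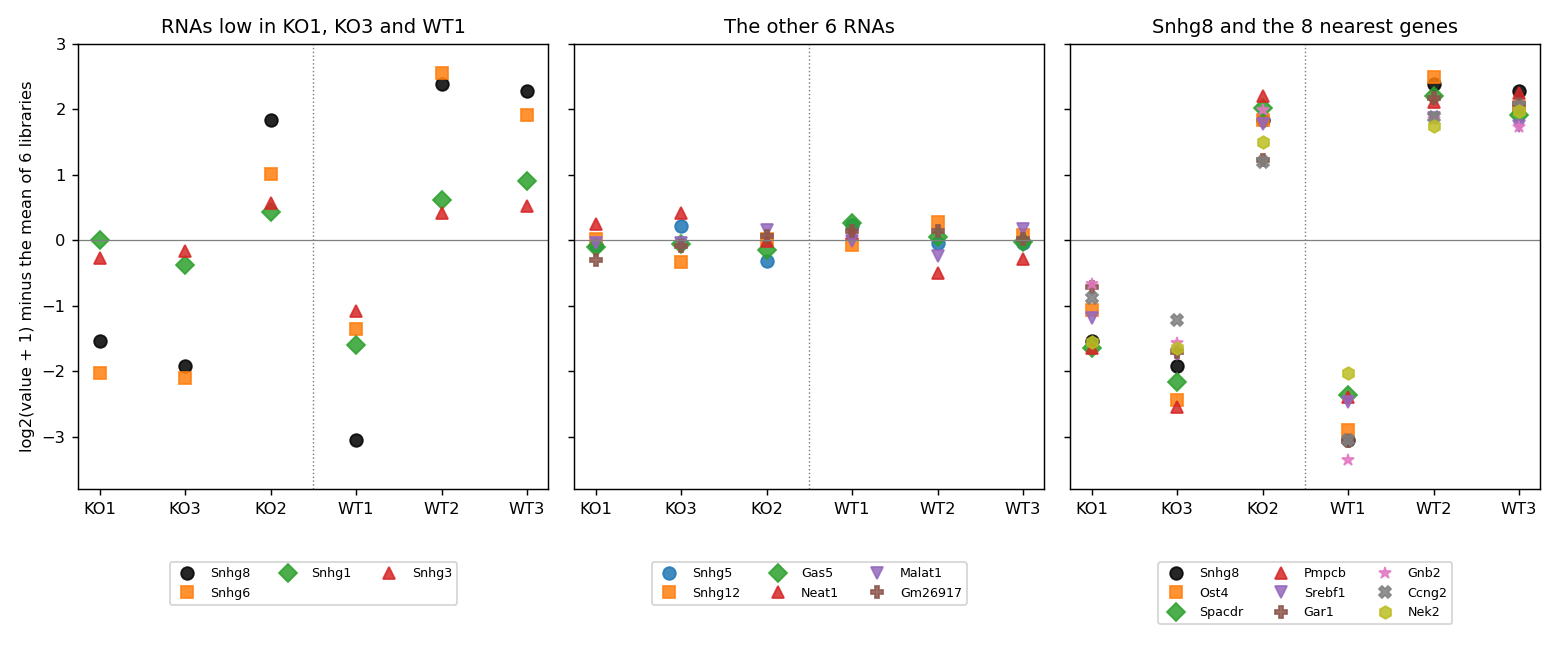
Centred log2(value + 1) in each library for Snhg8, Snhg6, Snhg1 and Snhg3 (left), the other 6 RNAs (middle) and Snhg8 with the 8 genes nearest to it (right); the dotted line parts knock-out from wild-type libraries. The left and right sets are lower in knock-out libraries 1 and 3 and wild-type library 1 than in the other 3 libraries, and in the middle set Neat1 runs the other way.

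Snhg6, which carries the box C/D snoRNA Snord87, had 16.3, 141 and 15.4 normalized counts in knock-out libraries 1 to 3 and 26.7, 414 and 265.1 in wild-type libraries 1 to 3. Its mean was 57.6 ± 72.2 in the knock-out label and 235.3 ± 195.4 in the wild-type label (SD, n = 3 each), and the groups overlapped through wild-type library 1. The log2 change of -2.08 (SE 1.22, 95% interval -4.99 to 0.82) did not pass (limma adjusted p = 0.385). The knock-out values were below the wild-type values inside both library sets, by a log2 change of -0.72 among knock-out 1, knock-out 3 and wild-type 1 and of -1.23 among knock-out 2, wild-type 2 and wild-type 3. The value of -0.72 rests on 18 and 13 reads in knock-out 1 and 3 and 20 in wild-type 1, where counting error is large. Snhg6 passed with a term for those library sets (log2 change -0.97, limma adjusted p = 0.0112) and without wild-type library 1 (log2 change -3.28, limma adjusted p = 0.0397). Without each of the other 5 libraries in turn it did not pass, and without wild-type library 2 the log2 change was -1.32 (limma adjusted p = 0.679). The sets were drawn from these same libraries. Snhg6 lies opposite Mcmdc2, and 18% of the sequence words of its transcript ends match the reverse strand of that gene, so without known strand handling some reads may belong to either.

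Snhg1, the host of Snord22 and other box C/D snoRNAs, had 275.2, 369.6 and 210 normalized counts in knock-out libraries 1 to 3 and 89.4, 420.7 and 511.2 in wild-type libraries 1 to 3. Wild-type library 1 was the lowest and the 2 other wild-type libraries the highest. The log2 change was 0.049 (SE 0.64, 95% interval -1.48 to 1.58, limma adjusted p = 0.978). It was 1.42 among knock-out 1, knock-out 3 and wild-type 1 and -0.33 among knock-out 2, wild-type 2 and wild-type 3, so the direction differed between the library sets, a difference that was not tested. Without wild-type library 1 it was -0.74 (limma adjusted p = 0.0601).

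Snhg3, the host of Snora73a and Snora73b, had 334, 593.9 and 357.2 normalized counts in knock-out libraries 1 to 3 and 189.4, 535 and 577.4 in wild-type libraries 1 to 3. Its means were 428.4 ± 143.8 in the knock-out label and 434.0 ± 212.8 in the wild-type label (SD, n = 3 each, log2 change 0.091, SE 0.46, 95% interval -0.995 to 1.18, limma adjusted p = 0.937). The log2 change was 0.86 among knock-out 1, knock-out 3 and wild-type 1 and 0.095 among knock-out 2, wild-type 2 and wild-type 3. With a term for the library sets it was 0.48 and did not pass (limma adjusted p = 0.0543). Rcc1, which encodes a nucleotide exchange factor of Ran, overlaps Snhg3 on the same strand in GENCODE M21. Rcc1 had 89.6, 190.8 and 51 in the knock-out libraries and 28, 271.3 and 252.4 in the wild-type libraries, low in the same 3 libraries as Snhg3. Of the sequence words of the Snhg3 transcript ends, 76.8% are shared with Rcc1 or with the opposite-strand gene Gm17300, so how reads were assigned among them is uncertain.

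The other 3 host RNAs held close to 1 level in all libraries. Gas5, named for its accumulation in growth-arrested cells, had 1500, 1454.2 and 1552.1 normalized counts in knock-out libraries 1 to 3 and 1939.9, 1657.8 and 1573.5 in wild-type libraries 1 to 3. Every knock-out value lay below every wild-type value, by as little as 1552.1 against 1573.5, as for 13.6% of all tested genes. The log2 change was -0.19 (SE 0.12, 95% interval -0.49 to 0.10, limma adjusted p = 0.428). Snhg5, the host of Snord50a and Snord50b, had 143, 120.3 and 174.4 in the knock-out libraries and 176.1, 145.3 and 145.3 in the wild-type libraries (log2 change -0.10, SE 0.19, 95% interval -0.55 to 0.35, limma adjusted p = 0.813). Its groups overlapped, and 29.9% of the words of its transcript ends occur in transcripts of other genes, so its reads are uncertain. Snhg12, the host of Snora16a, Snora44, Snora61 and Snord99, had 103.2, 103.1 and 80.7 in the knock-out libraries and 97.4, 124.3 and 108 in the wild-type libraries (log2 change -0.20, SE 0.19, 95% interval -0.64 to 0.24, limma adjusted p = 0.597). Snhg12 lies near Snhg3 on chromosome 4 but did not share its low values in knock-out libraries 1 and 3 and wild-type library 1.

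Of the nuclear RNAs, Neat1 had the smallest adjusted p among the 9. It stood at 383.8, 320.6 and 433.1 normalized counts in knock-out libraries 1 to 3 and 349.5, 229.3 and 266 in wild-type libraries 1 to 3. The mean was 379.2 ± 56.4 in the knock-out label and 281.6 ± 61.6 in the wild-type label (SD, n = 3 each), and the groups overlapped only through wild-type library 1 and knock-out library 2. The log2 change of 0.44 (SE 0.20, 95% interval -0.043 to 0.92) did not pass (limma adjusted p = 0.264). With wild-type library 1 left out it passed (log2 change 0.61, limma adjusted p = 0.0376). It did not pass without any other library, at a log2 change of 0.30 without wild-type library 2 (limma adjusted p = 0.554), nor with a term for the library sets (log2 change 0.30, limma adjusted p = 0.0892). Within the library sets it was 0.22 among knock-out 1, knock-out 3 and wild-type 1 and 0.38 among knock-out 2, wild-type 2 and wild-type 3.

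Malat1 had 3391, 3877.9 and 3385.4 normalized counts in knock-out libraries 1 to 3 and 3454.1, 2969.6 and 3950.4 in wild-type libraries 1 to 3. The lowest and the highest value were both wild type. The log2 change of 0.045 (SE 0.14, limma adjusted p = 0.898) had a 95% interval of -0.29 to 0.39. The mature 3' end of Malat1 and of the long Neat1 isoform has no poly(A) tail, so a kit that primes on poly(A) may count only part of these RNAs. Of the words of the Malat1 transcript ends 13.5% match the reverse strand of Gm37376, and 0 of those of Neat1 or Gm26917 occur in a transcript of another GENCODE gene. Sequence outside the annotated transcripts was not searched, and whether ribosomal RNA adds to the reads of Gm26917 was not tested.

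Gm26917, a predicted gene for which neither a role nor a place in the cell is given here, was the most abundant of the 10. It took 1.37% to 1.73% of all reads in the knock-out libraries and 1.67% to 1.8% in the wild-type libraries. It had 26505.8, 33925.3 and 30767.3 normalized counts in knock-out libraries 1 to 3 and 35752.6, 36099.9 and 33067 in wild-type libraries 1 to 3. Only knock-out library 2 reached the wild-type range (log2 change -0.21, SE 0.13, 95% interval -0.52 to 0.11, limma adjusted p = 0.423). With quantile normalization the log2 change was 0.073. The mitochondrial ribosomal RNAs mt-Rnr1 and mt-Rnr2 summed to 32998.9, 38358.3 and 34750.8 in the knock-out libraries and 47861.4, 47450.7 and 50197.1 in the wild-type libraries. Immediate early and heat shock genes (9 of 10 listed had a row) summed to 790.3 to 899.8 in the knock-out label and 545.7 to 637.4 in the wild-type label. The part of either in the values of the 10 RNAs was not tested.

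Of 12 other snoRNA host RNAs tested, listed with earlier results of these data known, Snhg18 rose, Snhg11 fell and 10 did not pass, against 6.92% passing over all tested genes. The difference from the 9 RNAs was not tested. Snhg18 had 250.7, 201.1 and 244.4 normalized counts in the knock-out libraries and 50.7, 42 and 31.8 in the wild-type libraries, a 5.59-fold rise (log2 change 2.47, SE 0.22, limma adjusted p = 0.0016). Snhg11 had 1.8, 1.7 and 3.6 in the knock-out libraries (7 reads) and 34.7, 20.2 and 26.3 in the wild-type libraries (79 reads), with a log2 change of -3.07 (SE 0.37, limma adjusted p = 0.00506). Neither call was lost when any 1 library was left out. Snhg11 was below 10 in all knock-out libraries, so it passed the filter only through the wild-type libraries. With no filter it had a limma adjusted p of 0.00452. Zfas1, another TOP-type host, was below every wild-type value in all knock-out libraries but did not pass (411.3 ± 41.8 in the knock-out label and 600.3 ± 16.4 in the wild-type label, SD, n = 3 each, log2 change -0.55, limma adjusted p = 0.0534). DESeq2 gave an adjusted p of 0.0186 for it. Snhg17 and Snhg15 had log2 changes of -1.15 and -0.78 (limma adjusted p = 0.0942 and 0.108). The median log2 change of the 12 was -0.45, with 9 negative. Of the 12, Snhg4 and Snhg16 were low in the same 3 libraries as Snhg8, against 21.5% of all tested genes. Snhg16 had 2.7, 12.9 and 3.6 in the knock-out libraries and 0, 11.8 and 13.6 in the wild-type libraries. It passed the filter only through the libraries where it was high, so its place in this count is no result. Snhg9 was high in those 3 libraries, against 18.5% of all tested genes. It had 341.3, 220.9 and 341.7 in the knock-out libraries and 329.5, 119.3 and 140.7 in the wild-type libraries.

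**Figure D3:**
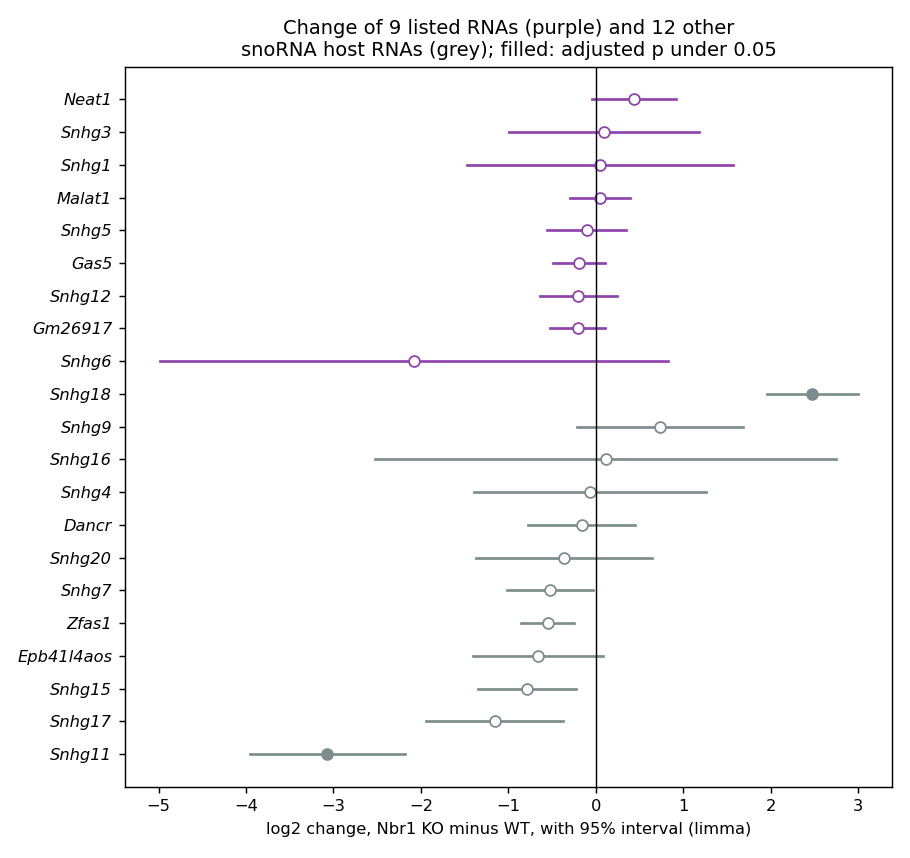
Log2 change (Nbr1 knock-out minus wild type, points) with 95% intervals (lines) of the 9 RNAs tested here and of 12 other snoRNA host RNAs; filled points have a limma adjusted p under 0.05. All 9 intervals of the listed RNAs include 0, the widest being that of Snhg6, while Snhg18 lies at 2.47 and Snhg11 at -3.07.

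Among 8 other long non-coding RNAs tested, Meg3 rose and H19 fell. Both are imprinted RNAs. Meg3 had 69.7, 50.7 and 89 normalized counts in the knock-out libraries (211 reads) and 0, 3.4 and 0 in the wild-type libraries (4 reads), with a log2 change of 5.40 (limma adjusted p = 0.00433). With so few wild-type reads its size depends on the pseudocount, at 6.12 with 0.5 and 3.62 with 5. Meg3 was below 10 in all wild-type libraries, so it passed the filter only through the knock-out libraries. With no filter it had a limma adjusted p of 0.00356. H19 had 45.3, 25.8 and 57 in the knock-out libraries and 493.6, 252.8 and 276.9 in the wild-type libraries (log2 change -2.97, SE 0.37, limma adjusted p = 0.00563). Dleu2 and Kcnq1ot1 had log2 changes of -0.93 and -0.58 and did not pass (limma adjusted p = 0.118 and 0.324). The list's median log2 change was -0.42, with 7 negative.

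Among genes of the machinery around these RNAs, Upf3a alone passed the limma test. Of 13 tested snoRNP proteins and assembly factors, 0 rose and 0 fell in limma, with a median log2 change of -0.32 and 11 negative, and the direction of the median was the same under the TMM, quantile, edgeR and DESeq2 scalings. At an unadjusted p under 0.05, 6 of them were lower. Over all tested genes 22.6% had such a p in either direction, and the counts at an unadjusted p in the lists that follow are to be read against that share. Ruvbl1, a helicase of snoRNP assembly, had 82.6 ± 5.9 in the knock-out label and 134.2 ± 12.9 in the wild-type label (SD, n = 3 each, limma adjusted p = 0.0519, or DESeq2 adjusted p = 0.0346). Nolc1, a chaperone of snoRNPs, had 208.5 ± 13.9 and 313.6 ± 43.0 in the same order of labels (limma adjusted p = 0.0757). Dkc1, the pseudouridine synthase of box H/ACA snoRNPs, had 519.6, 416.8 and 580.2 in the knock-out libraries and 1460.9, 711.3 and 682.8 in the wild-type libraries (limma adjusted p = 0.175). Of 13 protein-coding snoRNA hosts 0 passed in limma and 2 had an unadjusted p under 0.05, Nop56 and Dkc1, with a median log2 change of -0.17. Eif4a1, Eif4a2 and Tpt1 of this list were low without overlap in the same 3 libraries as Snhg8 and Eef2, Hspa8 and Rack1 were high there, so 3 of 13 each way, near the 21.5% and 18.5% of all tested genes. Tpt1, for example, had 381.1, 714.2 and 353.6 in the knock-out libraries and 184.1, 854.1 and 868.9 in the wild-type libraries.

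Of 17 genes of nonsense-mediated decay, the pathway that degrades many spliced host RNAs, Upf3a rose and 0 fell. Upf3a, a paralogue of the exon junction factor Upf3b, had 280.6, 228.6 and 236.1 in the knock-out libraries and 100.1, 141.9 and 139.8 in the wild-type libraries, 1.95-fold higher (log2 change 0.97, SE 0.19, limma adjusted p = 0.0303). This call was lost without any 1 of knock-out libraries 1 to 3 or wild-type libraries 2 and 3 (limma adjusted p = 0.076 to 0.167). Upf3b had a log2 change of -0.45 (limma adjusted p = 0.122), and the list's median was -0.17 with 11 negative. Rbm8a, a core protein of the exon junction complex, had a log2 change of -0.70 (limma adjusted p = 0.0932, or DESeq2 adjusted p = 0.0496).

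Of 12 paraspeckle proteins, which bind Neat1, 0 passed in limma, and the median log2 change was -0.15 with 11 negative. Pspc1 had 268.6 ± 17.0 in the knock-out label and 375.3 ± 8.5 in the wild-type label (SD, n = 3 each, log2 change -0.48, limma adjusted p = 0.071). At an unadjusted p under 0.05 there were 3, Pspc1 and Cpsf6 among them. Of 13 nuclear speckle proteins 0 passed in limma and 2 had an unadjusted p under 0.05, Acin1 and Srrm2, with a median log2 change of -0.15. Of 19 TOP mRNAs of translation 0 passed in limma and 3 had an unadjusted p under 0.05 (Hnrnpa1, Npm1 and Eef1g), with a median of -0.17 and 16 negative. Npm1, a nucleolar protein gene, had 2852.2 ± 48.0 in the knock-out label and 3784.8 ± 141.1 in the wild-type label (SD, n = 3 each, log2 change -0.41, limma adjusted p = 0.0663). In DESeq2, Hnrnpa1, Npm1 and Acin1 had adjusted p-values of 0.0189, 0.0177 and 0.0271. Of the 19 TOP mRNAs 8, Eef1a1 and Pabpc1 among them, were low without overlap in knock-out libraries 1 and 3 and wild-type library 1, and 5 were high there. The same libraries were low for 6 and high for 1 of the 12 paraspeckle proteins, and low for 5 and high for 1 of the 13 nuclear speckle proteins. Over all tested genes 21.5% were low and 18.5% high there, and the differences between lists were not tested.

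**Figure D4:**
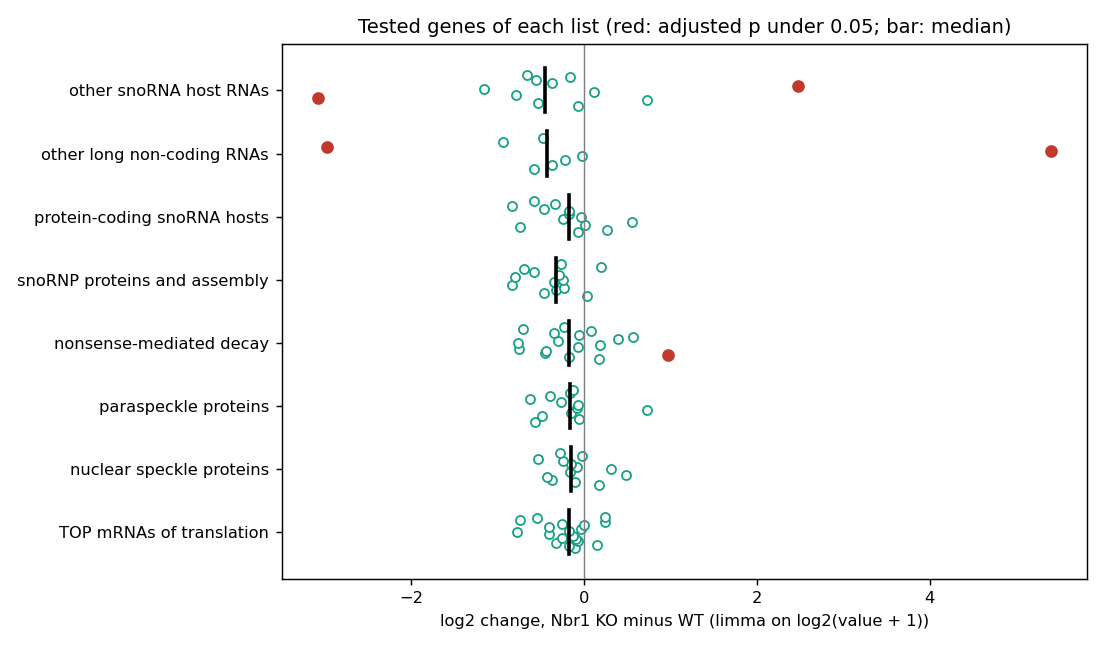
Log2 change (Nbr1 knock-out minus wild type) of each tested gene in 8 lists, with red points at a limma adjusted p under 0.05 and bars at the medians. The medians lie between -0.45 and -0.15, and the red points are Snhg18, Snhg11, Meg3, H19 and Upf3a.

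Neighbours of the 10 RNAs, here the nearest tested protein-coding gene on each side in GENCODE M21, were looked up after the values of the RNAs were seen. Distance was not limited, and genes that were not tested may lie between. For Snhg8, Tram1l1 had 5.4, 0.9 and 0 normalized counts in the knock-out libraries and 40, 37.8 and 51.8 in the wild-type libraries (limma adjusted p = 0.0136). Prss12, on the other side of Snhg8, had 9.1, 6.9 and 4.7 in the knock-out libraries and 16, 18.5 and 14.5 in the wild-type libraries (limma adjusted p = 0.088). Neither followed the library split of Snhg8. For Snhg6, Tcf24 had 2.7, 3.4 and 1.2 in the knock-out libraries and 24, 19.3 and 18.2 in the wild-type libraries (limma adjusted p = 0.00958). Tcf24, Tram1l1 and Prss12 were each below 10 in all knock-out libraries, so they passed the filter only through the wild-type libraries. Sgk3, on the other side of Snhg6, fell to 32.6, 28.4 and 23.7 in the knock-out libraries, against 48, 65.5 and 69.9 in the wild-type libraries (limma adjusted p = 0.0443). Frmd8, a neighbour of Neat1 and Malat1, did not pass (limma adjusted p = 0.934). Slc3a2 and Wdr74, the neighbours of Snhg1 in this sense, did not pass (limma adjusted p = 0.367 and 0.682).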

How the data were processed

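Libraries of 6 cultures, 200 ng of RNA each, were made with a QuantSeq 3' kit (Lexogen, forward reads, optional molecular identifiers) and read as single ends of 75 nucleotides, per the labels' protocols. The normalized count signal deposited by the authors is gene reads divided by 1 factor per library; the submitters' processing notes name DESeq2 and GRCm39, and the aligner, counter, annotation and use of strand are not given in the sources used here. In every library 100% of values were whole multiples of 1 read (tolerance 0.01), so reads were recovered, 1508518 to 2383879 per library. Whether duplicate reads of 1 molecule were removed is not known.

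The 10540 genes that reached 10 in 3 or more libraries entered limma 3.58.1 in R 4.3.3, two-sided, with a variance trend on log2(value + 1), no covariate, and p-values adjusted by Benjamini-Hochberg (threshold 0.05). This scale understates the change of low genes. Intervals of changes are 95% intervals of this fit. The script was tested on simulated data. Alternatives were pseudocounts of 0.5 and 5, a filter on the mean (50 or more) or none, TMM, quantile normalization, edgeR 4.0.16 and DESeq2 1.42.0 on recovered reads, no trend, a replicate block, library sets (average linkage) and each library left out. The series' design text calls the replicates biological, and if they are not from separate animals, p-values measure only the spread between these cultures.

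The members and lists were chosen with earlier results of these data known. Named genes are the 10 RNAs, up to 4 members of each list with the smallest p, members needed for a count of 5 or fewer, Nbr1, Sqstm1, and the 8 genes nearest to Snhg8. Genes named outside this rule (neighbours, Snhg15, Snhg4, Snhg16, Snhg9, Eif4a1, Eif4a2, Tpt1, Eef2, Hspa8, Rack1, Eef1a1, the Krt genes) were chosen after their values were seen. Transcript ends were compared as words of 31 bases over the last 300 bases of GENCODE M21 transcripts. Rows for 5 listed genes of the ribosomal DNA region, among them Gm42418, were not analysed here. Some results of genes that the rule names are not reported here.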

Additional observations from a re-analysis of the deposited data

How the results depend on the processing

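The count of genes changed, 729 in the limma test, was 380 with a mean of at least 50, 476 with the replicate block and 2791 with a term for the library sets, and 200 to 2228 with 1 library left out. The count of the 9 RNAs changed, 0, was 1 (Snhg6) with the term for the library sets and 0 to 2 with 1 library left out (Snhg6 and Neat1, without wild-type library 1). Library sets fitted alone hold 1 library in a group, so they gave log2 values and no count. Over 40 genes and 19 settings there were 756 values. In the settings with a test the direction changed in 12 values, none of them of a gene that had passed. In the 2 library sets fitted alone, a change of direction was counted only for genes that had passed, and there was none. Uncounted changes there include Snhg1, at -0.33 among knock-out 2, wild-type 2 and wild-type 3 against 0.049 in the main fit. Malat1 is another, at -0.028 among knock-out 1, knock-out 3 and wild-type 1 against 0.045. Snhg1 turned to -0.25 in edgeR and -0.26 in DESeq2, Snhg3 to -0.009 in edgeR and -0.023 in DESeq2, and Gm26917 to 0.073 with quantile normalization. With 1 library left out the log2 change lay between -0.74 and 0.51 for Snhg1, -0.43 and 0.38 for Snhg3, -0.24 and 0.028 for Snhg5, and -0.06 and 0.15 for Malat1. The cause was not tested. Snhg18, Snhg11, Meg3 and H19 passed in every setting with a test (highest adjusted p 0.0206, 0.0368, 0.0363 and 0.0373). Upf3a lost its call in 6 settings, 1 of them the replicate block (adjusted p = 0.0766). Same-numbered libraries deviated from their group means with correlations of 0.445, 0.698 and -0.623 for numbers 1 to 3, so the numbers were not taken to pair them. The block changed no other call among these 40 genes, and genes named outside them were not run under the alternatives. Counting error is large where reads are few: the lowest library had 13 reads of Snhg6 and of Snhg8, 2 of Snhg11 and 0 of Meg3 and Snhg16.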

Other observations

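The split that Snhg8 and Snhg6 show was uneven in direction. Of the 10540 tested genes, 42 were lower without overlap in knock-out libraries 1 and 3 and wild-type library 1, with a mean more than 10-fold below that of the other 3 libraries, and 0 were more than 10-fold higher there. Of the 42, 27 were below 10 in all 3 low libraries and so passed the filter only through the libraries where they were high, and Snhg8 had been picked for the split. Snhg8 had a ratio of 19.2 and Snhg6 of 14.0. Others of the 42, chosen after their values were seen, included the actin-binding profilin gene Pfn1, at 0.9, 119.5 and 1.2 normalized counts in knock-out libraries 1 to 3 and 5.3, 189.8 and 155.3 in wild-type libraries 1 to 3. The ribosomal subunit gene Mrps28 had 0.9, 65.3 and 2.4 in the knock-out libraries and 1.3, 98.3 and 67.2 in the wild-type libraries. Sdhd, a subunit of succinate dehydrogenase, had 4.5, 77.4 and 1.2 in the knock-out libraries and 5.3, 239.3 and 151.6 in the wild-type libraries. No chromosome held more than 4 of the 42, of which 2 were not matched to a chromosome.

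Inside the host genes, 10 snoRNAs had rows of their own, each with 12 to 145 reads over the 6 libraries. Snora73b, inside Snhg3, had the most, with 21, 13 and 22 reads in knock-out libraries 1 to 3 and 40, 28 and 21 in wild-type libraries 1 to 3. It was not low in the 3 libraries where Snhg3 was low. SnoRNAs have no poly(A) tail, and what these reads come from was not tested.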
